A study of Mus musculus with 8 samples.

Results

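The 9 genes studied here belong to transforming growth factor beta (TGF-beta) signalling and were measured in sorted cells of mouse molars: the ligand genes Tgfb1, Tgfb2 and Tgfb3, the receptor genes Tgfbr1, Tgfbr2 and Tgfbr3, and the response genes Tgfbi, Skil and Pmepa1. They were taken by name, as 9 of the 56748 genes in the count table, and all 9 had enough counts to be tested among 21508 genes. Tgfb3 was the gene that passed the test, with levels 4.46-fold higher in the libraries labelled Ctnnb1(-/-) than in those labelled Ctnnb1(+/-). The test called 1.08% of all tested genes higher. Tgfb3 passed in 2 of the 8 fits that each left out 1 library. It did not pass in the fits that used marker genes of mesenchyme or of olfactory neurons.

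TGF-beta ligands are secreted in a latent form, held in the matrix by latent TGF-beta binding proteins, and signal once released. An active ligand binds the type II receptor, TGFBR2, which recruits and phosphorylates the type I receptor, TGFBR1. The receptor pair then phosphorylates SMAD2 and SMAD3, which enter the nucleus with SMAD4. The pathway is known for its part in matrix production, odontoblast differentiation and root formation of the tooth.

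RNA was sequenced in bulk from tdTomato-positive cells isolated by flow sorting from lower-jaw molars at postnatal day 10, with tamoxifen given to all animals at day 3. The 4 libraries labelled cHet (conditional heterozygote) have the genotype Ctnnb1(+/-) and the 4 labelled cKO (conditional knockout) have Ctnnb1(-/-), where Ctnnb1 is the gene for beta-catenin. By these labels both groups carry a Ctnnb1 deletion, the tdTomato marker and the tamoxifen treatment, and no library without a deletion was analysed here. The labels call the cells CXCL12+ apical papilla cells of the dental pulp, while the extraction protocol speaks of dental follicle cells. The labels name no Cre driver, and they do not say whether each library came from its own animal, so the p-values speak for the variation among these 8 libraries, part of which may be technical.

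Each library held between 44444033 and 50051392 counts. Values are counts scaled to library size (CPM, with trimmed-mean or TMM factors), as mean ± SD of 4 libraries, and calls are those of edgeR's quasi-likelihood test with a Benjamini-Hochberg adjusted p under 0.05 over all tested genes. Ctnnb1 stood at 209 to 304 CPM in cHet and 229 to 313 CPM in cKO, and a count over the whole gene does not check a deletion of part of it. Summed over 12 dental papilla markers, levels were 483 to 1306 CPM in cHet and 2786 to 5160 CPM in cKO. Summed over 15 general mesenchyme markers they were 3524 to 12128 CPM and 13902 to 27806 CPM, so neither sum overlapped between the groups. Gene by gene, 7 of the 15 mesenchyme and 10 of the 12 papilla markers had every cKO library above every cHet library. This was so for 6.46% of all tested genes. In each of these lists 1 gene had a log2 fold change below 0. The libraries also held transcripts of other cells: 12 olfactory neuron markers summed to 7622 to 13612 CPM in cHet and 6564 to 8156 CPM in cKO, 12 macrophage markers to 216 to 3615 CPM and 135 to 396 CPM, and 8 neutrophil markers to 51.1 to 19742 CPM and 24.7 to 1300 CPM. In bulk RNA, fewer cells of a type and less RNA per cell cannot be told apart. The closest pair of libraries by log2 CPM crossed the groups, cHet11 with cKO9 (r = 0.943 across genes, which are not independent replicates), so the results are also given without these 2. That fit was added after seeing the data and called 2.84% of all genes higher, beside 1.08% with all libraries.

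Promoters are shown for 4 of the genes described next, because Tgfb2, Tgfbr2 and Tgfbi were higher in every cKO library than in every cHet library and Tgfbr1 was not. RefSeq promoter windows, 250 bases before to 50 after a start site in build GRCm38.p6, were matched by symbol for 5 of the 9 genes. Tgfb3, Tgfbr3, Skil and Pmepa1 had no entry. Capitals mark the Smad-binding motif CAGAC on either strand, so that GTCTG is the same motif read on the other strand. The windows lie at chr1:186705940-186706239 on the minus strand for Tgfb2, chr9:116175314-116175613 on the minus strand for Tgfbr2, chr13:56609336-56609635 on the plus strand for Tgfbi, and chr4:47352972-47353271 on the plus strand for the upstream start site of Tgfbr1.
Tgfb2: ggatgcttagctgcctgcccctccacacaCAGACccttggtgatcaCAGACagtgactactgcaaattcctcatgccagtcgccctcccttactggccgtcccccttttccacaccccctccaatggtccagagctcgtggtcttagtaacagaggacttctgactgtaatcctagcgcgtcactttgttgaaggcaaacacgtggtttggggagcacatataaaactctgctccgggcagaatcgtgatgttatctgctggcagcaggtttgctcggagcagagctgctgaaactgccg
Tgfbr2: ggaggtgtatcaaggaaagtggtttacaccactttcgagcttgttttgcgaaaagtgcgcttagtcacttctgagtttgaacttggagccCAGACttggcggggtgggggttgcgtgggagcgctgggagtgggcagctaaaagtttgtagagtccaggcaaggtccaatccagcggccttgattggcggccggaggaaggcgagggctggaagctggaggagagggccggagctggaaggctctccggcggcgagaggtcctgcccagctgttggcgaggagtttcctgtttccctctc
Tgfbi: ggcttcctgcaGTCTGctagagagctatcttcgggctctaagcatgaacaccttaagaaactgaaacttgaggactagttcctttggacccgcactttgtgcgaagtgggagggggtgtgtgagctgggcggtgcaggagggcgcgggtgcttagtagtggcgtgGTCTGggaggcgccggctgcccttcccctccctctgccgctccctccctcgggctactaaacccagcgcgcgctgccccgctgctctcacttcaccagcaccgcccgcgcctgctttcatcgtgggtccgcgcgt
Tgfbr1: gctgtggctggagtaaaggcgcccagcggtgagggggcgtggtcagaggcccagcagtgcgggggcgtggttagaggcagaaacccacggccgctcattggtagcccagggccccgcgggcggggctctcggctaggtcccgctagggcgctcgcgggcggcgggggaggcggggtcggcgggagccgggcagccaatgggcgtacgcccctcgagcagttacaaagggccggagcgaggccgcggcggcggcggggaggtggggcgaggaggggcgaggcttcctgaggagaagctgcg

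The CAGAC motif occurred 2 times in the Tgfb2 window, 2 times in the Tgfbi window and 1 time in the Tgfbr2 window. It was found neither in the upstream Tgfbr1 window nor in that of Tgfb1, and 1 time in the window of the downstream Tgfbr1 start site. Of 32851 promoter windows of this length, 49.6% hold CAGAC on either strand, so its presence is common. The Smad box GTCTAGAC, held by 0.213% of windows, and the TCF/LEF core CTTTGAT, held by 3.73%, were searched on both strands and found in none of the 6 windows of these genes. None of these motifs contains another, and a match is a description of letters in the window and not a bound site.

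Among the ligand genes, Tgfb3 rose and Tgfb2 was higher in every cKO library without passing the test, while Tgfb1 levels overlapped between the groups. With the libraries scaled to mesenchyme markers, as given further on, Tgfb2 and Tgfb1 had negative log2 fold changes and Tgfb3 did not. Tgfb3 (ENSMUSG00000021253.8) encodes the ligand TGF-beta 3, best known for its part in palate fusion. It stood at 38.9 CPM in cHet11, 73.8 in cHet12, 67.9 in cHet14 and 95.9 in cHet8, and at 325 CPM in cKO14, 386 in cKO15, 355 in cKO7 and 167 in cKO9. All cKO libraries lay above all cHet libraries, and cKO9 was the lowest of its group by a wide margin. The means were 69.1 ± 23.5 and 308 ± 97.5 CPM, a log2 fold change of 2.16 (SE 0.33, edgeR adjusted p = 0.0376), with an exact permutation p of 0.0286, the smallest that 4 against 4 libraries allow in a two-sided test. Without cHet11 and cKO9, a fit added after seeing the data, the log2 fold change was 2.17 (adjusted p = 0.00838). That fit called 2.84% of all genes higher.

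Tgfb2 (ENSMUSG00000039239.15) encodes TGF-beta 2, a ligand that needs the co-receptor betaglycan for high-affinity binding. It stood at 20.0 CPM in cHet11, 41.0 in cHet12, 31.6 in cHet14 and 43.8 in cHet8, and at 74.4 CPM in cKO14, 101.9 in cKO15, 70.3 in cKO7 and 57.4 in cKO9. The groups did not overlap, with the lowest value of each group again in cHet11 and cKO9. The mean was 2.23-fold higher in cKO (log2 1.16, SE 0.27), which did not pass over all genes (edgeR adjusted p = 0.0862). It passed without cHet11 and cKO9 (adjusted p = 0.0465).

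Tgfb1 (ENSMUSG00000002603.16) encodes the ligand that immune cells and platelets are known to make in quantity. It stood at 8.61 CPM in cHet11, 48.2 in cHet12, 15.5 in cHet14 and 20.9 in cHet8, and at 45.1 CPM in cKO14, 45.4 in cKO15, 34.8 in cKO7 and 40.1 in cKO9. The cHet12 library had the highest value of all 8, and the other cHet libraries lay below every cKO library. cHet12 also had the highest macrophage marker sum, 3615 CPM, and the highest neutrophil marker sum, 19742 CPM. In cKO these sums were 135 to 396 CPM and 24.7 to 1300 CPM. Of the cHet libraries, cHet12 had the highest mesenchyme marker sum as well, 12128 CPM. The part of any of these cells in the Tgfb1 levels was not tested. The log2 fold change was 0.83 (SE 0.46, edgeR adjusted p = 0.404) with all libraries and 1.46 (adjusted p = 0.102) without cHet12.

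**Figure D1:**
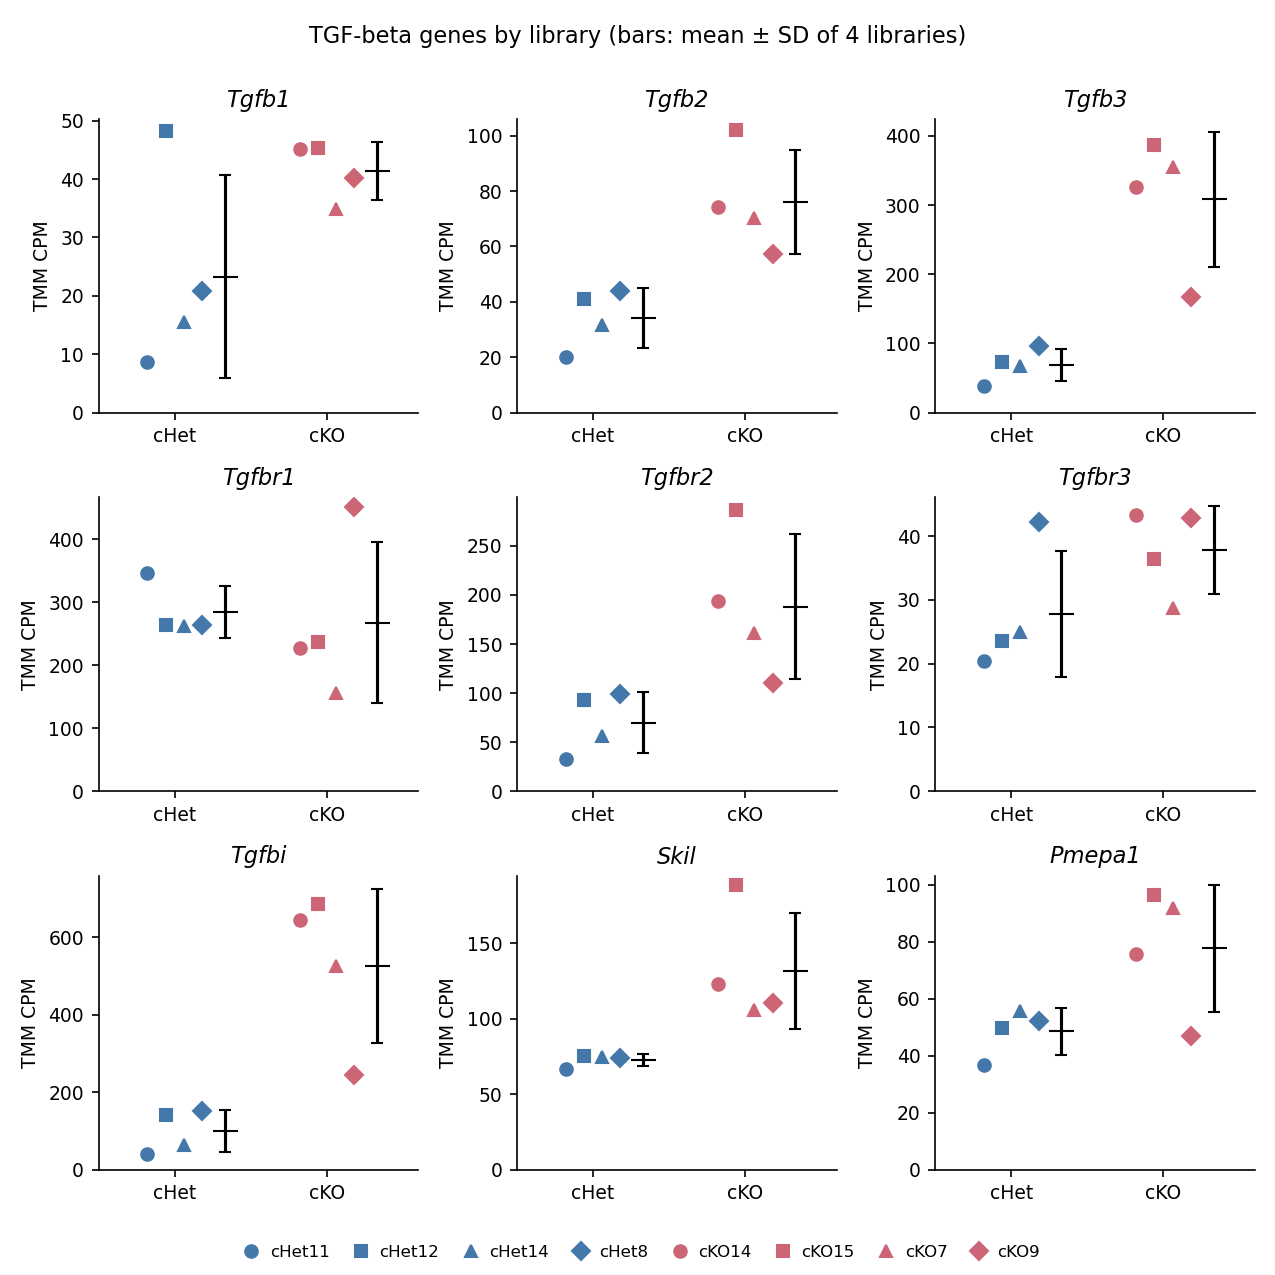
TMM-scaled CPM (vertical axes, from 0) of the 9 TGF-beta genes in 4 cHet (blue) and 4 cKO (red) libraries, 1 symbol per library, with the mean ± SD of each group in black. Tgfb2, Tgfb3, Tgfbr2, Tgfbi and Skil do not overlap between the groups, cHet12 is high for Tgfb1, and cHet11 and cKO9 are high for Tgfbr1. With libraries scaled to mesenchyme markers, 7 of the 9 log2 fold changes are negative, all but those of Tgfb3 and Tgfbi. In that scaling the median of all tested genes is −1.54, and all 9 genes lie above it.

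Per length, Tgfb3 was the most abundant of the 3 ligand transcripts in all 8 libraries. Levels were divided by the exon length of each gene in the GENCODE M21 annotation, which is built on GRCm38 and may differ from the annotation the authors counted with. Tgfb3 stood at 20.4 ± 6.95 CPM per kilobase in cHet and 91.2 ± 28.8 in cKO. Tgfb2 stood at 5.89 ± 1.86 and 13.1 ± 3.24 CPM per kilobase, and Tgfb1 at 4.62 ± 3.44 and 8.20 ± 0.989. The share of Tgfb3 in the ligand sum was 66.7% ± 6.67 in cHet, with a range of 56.7% to 70.8%, and 80.2% ± 4.77 in cKO, with a range of 73.4% to 84.6%. The share of Tgfb2 was 19.3% ± 1.01 and 11.98% ± 2.15, and its ranges, 18.4% to 20.8% and 9.79% to 14.7%, did not overlap either. Tgfb1 made up 24.8% of the ligand sum in cHet12 and between 5.57% and 11.8% in the other 7 libraries.

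**Figure D2:**
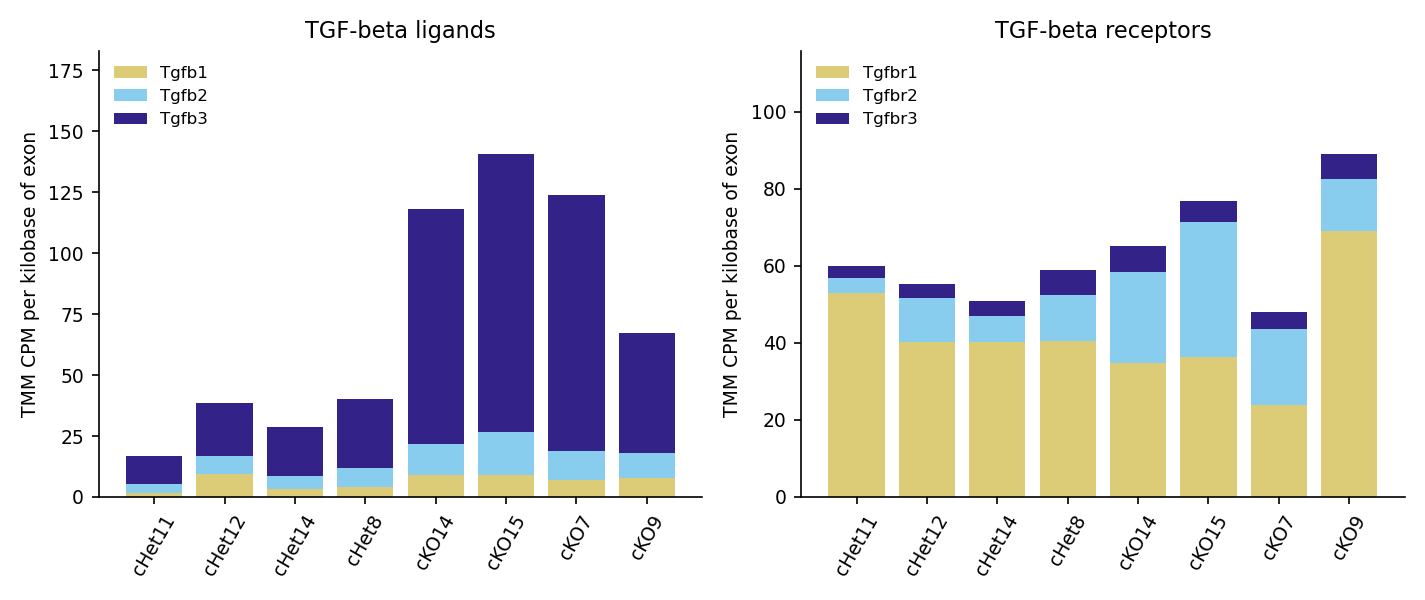
Stacked TMM-scaled CPM per kilobase of exon (vertical axes, from 0) of the ligand genes (left) and receptor genes (right) in each library. Tgfb3 makes up the larger part of every ligand bar, from 56.7% in cHet12 to 84.6% in cKO7, and Tgfbr1 is the largest part of every receptor bar, from 47.2% in cKO15 to 88.2% in cHet11.

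The receptor genes differed from each other. Tgfbr2 was higher in every cKO library, Tgfbr3 levels overlapped, and Tgfbr1 had a log2 fold change near 0. All 3 log2 values were negative under mesenchyme scaling, where the median of all tested genes was −1.54. In that scaling Tgfbr2 and Tgfbr3 lay above the median and Tgfbr1 lay close to it. None of the 3 passed edgeR's test over all genes (unadjusted p of 0.00653 for Tgfbr2, 0.112 for Tgfbr3 and 0.783 for Tgfbr1), and DESeq2 and voom each called Tgfbr2.

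Tgfbr2 (ENSMUSG00000032440.14) encodes the type II receptor, the subunit that binds ligand and starts the signal. It stood at 32.5 CPM in cHet11, 92.6 in cHet12, 56.1 in cHet14 and 98.7 in cHet8, and at 194 CPM in cKO14, 287 in cKO15, 161 in cKO7 and 111 in cKO9. The groups did not overlap, though cKO9 lay close above cHet8. The mean was 2.69-fold higher in cKO (log2 1.43, SE 0.40, edgeR adjusted p = 0.130), and the adjusted p was 0.00293 by DESeq2 and 0.0286 by voom. With the mesenchyme marker score as a covariate, itself higher in every cKO library than in every cHet library, the log2 value was 0.02 (SE 0.17). With the libraries scaled to mesenchyme markers the log2 value was −0.01, where the median of all tested genes was −1.54.

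Tgfbr1 (ENSMUSG00000007613.16) encodes the type I receptor, the kinase that phosphorylates SMAD2 and SMAD3. It stood at 346 CPM in cHet11, 263 in cHet12, 262 in cHet14 and 264 in cHet8, and at 227 CPM in cKO14, 237 in cKO15, 156 in cKO7 and 451 in cKO9. The highest values were thus in cHet11 and cKO9, the pair of libraries in which Tgfb2, Tgfb3, Tgfbr2 and Tgfbi were lowest of their groups. The log2 fold change was −0.08 (SE 0.30, edgeR adjusted p = 0.922), −0.46 without cKO9 (adjusted p = 0.186) and −0.35 without cHet11 and cKO9 (adjusted p = 0.340), so a difference was not shown in either direction.

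Per length, Tgfbr1 was the most abundant receptor transcript in all 8 libraries, at 43.4 ± 6.32 CPM per kilobase in cHet and 41.0 ± 19.5 in cKO, against 8.55 ± 3.82 and 23.0 ± 9.05 for Tgfbr2. The per-length ratio of Tgfbr2 to Tgfbr1 was 0.0750 in cHet11, 0.281 in cHet12, 0.171 in cHet14 and 0.298 in cHet8. It was 0.682 in cKO14, 0.966 in cKO15, 0.822 in cKO7 and 0.196 in cKO9. In 3 of the 4 cKO libraries the ratio lay above every cHet library, and cKO9 lay within the cHet range.

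Tgfbr3 (ENSMUSG00000029287.15) encodes betaglycan, the co-receptor that presents TGF-beta 2 to the signalling receptors. It stood at 20.3 to 42.3 CPM in cHet, with the highest value in cHet8, and at 28.7 to 43.4 CPM in cKO. The ranges overlapped, and the log2 fold change was 0.45 (SE 0.25, edgeR adjusted p = 0.415). Leaving out cHet8 moved it to 0.72 (adjusted p = 0.127).

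The response genes all had higher means in cKO, and none passed edgeR's test over all genes. With mesenchyme scaling Skil and Pmepa1 had negative log2 values. The median of all tested genes was −1.54 in that scaling, below each of these response genes. Tgfbi (ENSMUSG00000035493.11) encodes a secreted matrix protein named for its induction by TGF-beta. It stood at 40.8 CPM in cHet11, 140 in cHet12, 64.7 in cHet14 and 152 in cHet8, and at 644 CPM in cKO14, 687 in cKO15, 526 in cKO7 and 244 in cKO9. The groups did not overlap, and cHet11 and cKO9 were again the lowest of their groups. The mean was 5.29-fold higher (log2 2.40, SE 0.49, edgeR adjusted p = 0.0610, unadjusted p = 0.000954), the widest difference of the 9 genes. It passed without cKO9 (adjusted p = 0.0282) and without cHet11 and cKO9 (0.0217).

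Skil (ENSMUSG00000027660.17) encodes SnoN, a repressor of SMAD complexes that the pathway induces as negative feedback. The cHet libraries were tightly grouped, with 67.0 CPM in cHet11, 75.4 in cHet12, 74.8 in cHet14 and 74.1 in cHet8, while cKO14 had 123 CPM, cKO15 188, cKO7 106 and cKO9 110. The groups did not overlap, and cKO15 stood above the other cKO libraries. The mean was 1.81-fold higher (log2 0.86, SE 0.19, edgeR adjusted p = 0.0728, unadjusted p = 0.00155). Without cKO9 it passed (adjusted p = 0.0431), where 3.67% of all genes were called higher. Of the 8 omissions of a single library it passed in 1, with adjusted p up to 0.197. Without cKO15 the log2 value was 0.63, and without cHet11 and cKO9 Skil was not called (log2 0.895).

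Pmepa1 (ENSMUSG00000038400.16) encodes a membrane protein that sequesters SMAD2 and SMAD3 and is likewise a feedback gene of the pathway. It stood at 36.7 CPM in cHet11, 49.9 in cHet12, 55.6 in cHet14 and 52.3 in cHet8, and at 75.7 CPM in cKO14, 96.2 in cKO15, 91.7 in cKO7 and 47.0 in cKO9. The overlap came from cKO9 alone, which lay within the cHet range. The log2 fold change was 0.68 (SE 0.23, edgeR adjusted p = 0.202, unadjusted p = 0.0194) with all libraries and 0.85 (adjusted p = 0.0371) without cKO9.

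Across the 9 genes, 1 was called higher in cKO and 0 lower by edgeR, where 1.08% of all tested genes were called higher and 0.0558% lower, and 6 of the 9 had an unadjusted p under 0.05 with a higher level in cKO, where 10.8% of all tested genes did. In 5 of them, Tgfb2, Tgfb3, Tgfbr2, Tgfbi and Skil, the groups did not overlap and every cKO library lay above every cHet library, as in 6.46% of all tested genes. The median log2 fold change was 0.86 for the 9 genes and −0.03 for all tested genes. DESeq2 called 6 of the 9 higher, the 5 named above and Pmepa1. It called higher 8.64% of the 19720 genes to which it gave an adjusted p. Voom with quality weights called the same 5 genes, where it called 5.96% higher. The 9 genes were chosen with earlier results of these data known, share their libraries and are not independent observations.

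The log2 fold changes were smaller for 8 of the 9 genes, all but Tgfbr1, in a fit that included the mesenchyme markers. The score of these markers was 6.0 to 7.7 in cHet and 7.9 to 9.0 in cKO, without overlap. It thus followed genotype, and that fit cannot separate marker level from genotype. The part of the cell makeup in the result was not tested. In the fit with the mesenchyme marker score as a covariate, the log2 values were 1.05 for Tgfb3 (SE 0.25, adjusted p = 0.440), 0.80 for Tgfbi (SE 0.27), 0.48 for Skil, 0.23 for Tgfb2, 0.06 for Tgfbr3 and 0.04 for Pmepa1, with Tgfb1 at −0.22 and Tgfbr1 at 0.48. None of the 9 was called in that fit by edgeR (0.0232% of all genes were called higher), and 2 had an unadjusted p under 0.05, as did 6.56% of all genes. None was called with an olfactory neuron score as the covariate, where Tgfb3 had a log2 value of 1.65 (SE 0.43) and Tgfbi 1.46, and 0% of all genes were called. There too 2 of the 9 had an unadjusted p under 0.05, as did 6.07% of all genes. With the libraries scaled to the mesenchyme markers, the median of all tested genes moved to −1.54, and all 9 genes lay above that median. In that scaling 0.33% of all genes were called higher and 45.3% lower. Tgfbi had a log2 value of 0.9998 (adjusted p = 0.0434) and was called, Tgfb3 was at 0.68 (adjusted p = 0.109), and the other 7 were negative.

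The call of Tgfb3 was lost in 6 of the 8 omissions of a single library. It held without cHet8 (adjusted p = 0.0423, with 0.698% of all genes called higher) and without cKO9 (0.0152). It was lost without cHet11 (0.0782), cHet12 (0.0890), cHet14 (0.147), cKO14 (0.131), cKO15 (0.1201) or cKO7 (0.103), with log2 values between 1.96 and 2.36 throughout these 8 omissions. Without cKO9, 4 of the 9 genes were called, namely Tgfb3, Tgfbi, Skil and Pmepa1, where 3.67% of all genes were called higher. Without cHet11 and cKO9, Tgfb2, Tgfb3, Tgfbi and Pmepa1 were called, where 2.84% were.

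**Figure D3:**
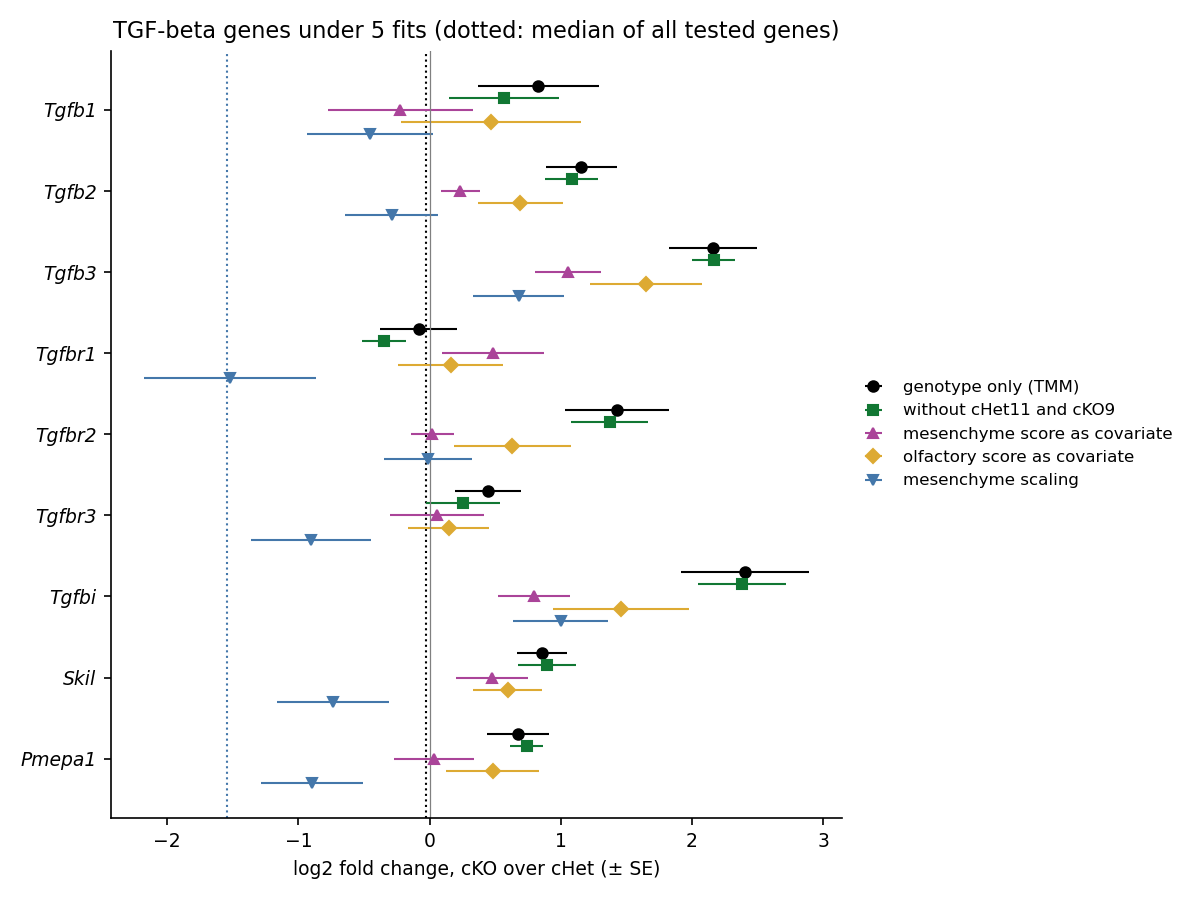
Log2 fold change of cKO over cHet with its SE (horizontal axis) for the 9 genes in 5 fits, with the median of all tested genes as a dotted line for the fit with genotype alone (−0.03) and for mesenchyme scaling (−1.54). Tgfb3 and Tgfbi stay above 0 in all 5 fits, Tgfb1 and Tgfbr1 change sign with the mesenchyme score as covariate, and 7 of the 9 genes are negative under mesenchyme scaling.

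Tgfb2, Tgfb3, Tgfbr2 and Tgfbi varied together across libraries. After subtraction of each group's mean, log2 CPM of Tgfb2 and Tgfbr2 correlated at 0.990, Tgfbr2 and Tgfbi at 0.957, and Tgfb3 with Tgfbi at 0.922 and with Pmepa1 at 0.911. Tgfbr1 went the other way, with −0.790 against Tgfb3 and −0.883 against Pmepa1, and Tgfbr3 correlated with no other of the 9 genes above 0.446. These values describe 8 libraries that share their depth and cell makeup between genes, and no test was made of them.

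The genes whose pattern over the 8 libraries was most like that of each of the 9, among 12529 genes compared with a mean of at least 5 CPM, differed from gene to gene. For Tgfb3 they were Gas1, a Hedgehog co-receptor gene (r = 0.998), Lamb2, a laminin chain gene (0.997), and Tcf7l1, a TCF-family factor gene (0.996). For Tgfbr2 they included Cdh11, a mesenchymal cadherin gene (0.996), and C1ra, a complement protease gene (0.994). For Tgfb2 they were Cish, Pcsk5 and Smurf1 (0.993 to 0.994), and for Tgfbi they were Klf3, Ptges and Sspn (0.992 to 0.995). For Skil they were Creb3l2, Tmx4 and Gprasp1 (0.981 to 0.988), and for Pmepa1 Ccdc90b, Tapbp and Slc35a1 (0.992 to 0.995). Tgfb1 was closest to Tnip1, an inhibitor gene of inflammatory NF-kappa-B signalling (0.989), then Zfp36l2 and Ripor1. Tgfbr1 was closest to Synrg, Tmed8 and Fryl (0.981 to 0.982), and Tgfbr3 to Nub1, Zeb1 and Col4a2 (0.940 to 0.948).

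**Figure D4:**
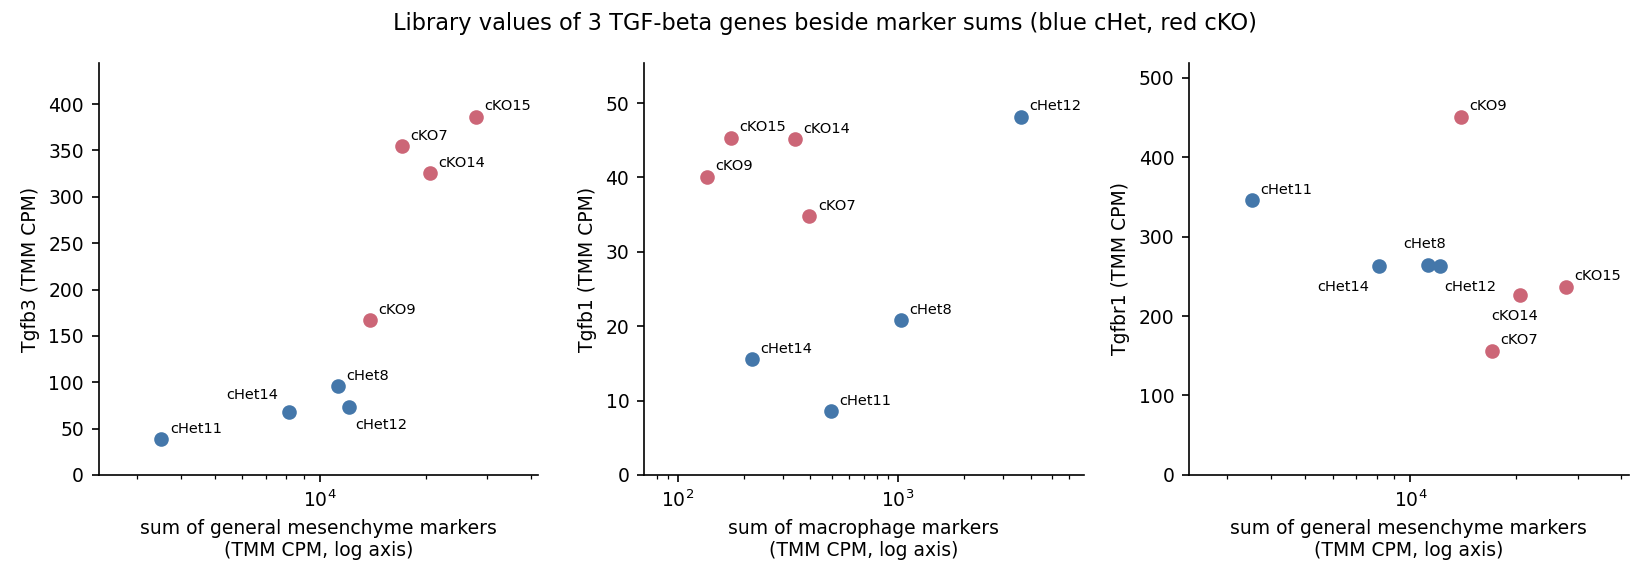
Levels of Tgfb3, Tgfb1 and Tgfbr1 (vertical axes, TMM CPM from 0) in each library against the summed level of a marker list (horizontal log axes). Neither the mesenchyme sum nor Tgfb3 overlaps between the groups, so the 4 cKO libraries are highest in both, and the order within the groups is not fully the same. cHet12 combines the highest macrophage sum (3615 CPM) with the highest Tgfb1 level (48.2 CPM), and Tgfbr1 is highest in cKO9 (451 CPM) and cHet11 (346 CPM).

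Beyond the 9 genes, 65 further genes of the pathway were examined, in 5 lists chosen with earlier results of these data known. Of the 65 genes, 61 could be tested. Of these, 4 rose, Ltbp3, Fbn1, Timp3 and Tsc22d1, and 0 fell, where edgeR called 1.08% of all tested genes higher and 0.0558% lower. Leaving out 1 library in turn, Ltbp3, Fbn1 and Timp3 passed without cHet8 or cKO9 and Tsc22d1 without cKO9, and none of the 4 passed in the other omissions. Their adjusted p ran from 0.0152 to 0.146 for Ltbp3, 0.0355 to 0.159 for Fbn1, 0.0119 to 0.131 for Timp3 and 0.0111 to 0.148 for Tsc22d1. Of the 61, 51 had a log2 fold change above 0 and 10 below, where 47.5% of all tested genes had a log2 fold change above 0, and 13 had all cKO libraries above all cHet libraries, as did 6.46% of all tested genes. DESeq2 called 17 higher and 1 lower, where it called higher 8.64% of the 19720 genes to which it gave an adjusted p. Voom called 18 higher, where it called 5.96% of all tested genes higher. With the mesenchyme or the olfactory score as covariate edgeR called none of these genes (13 had an unadjusted p under 0.05 in each fit, beside 6.56% and 6.07% of all genes), and under mesenchyme scaling it called 2 higher and 16 lower, where it called 45.3% of all genes lower.

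Of 16 latency and activation genes, all tested, 2 rose and 0 fell (median log2 0.67, against −0.03 for all genes). At an unadjusted p under 0.05, 7 were higher and 2 lower, beside 10.8% and 6.33% of all tested genes. Ltbp3, which encodes a latent TGF-beta binding protein that escorts the ligand into the matrix, stood at 32.5 to 73.6 CPM in cHet and 131 to 304 CPM in cKO (log2 2.11, SE 0.31, edgeR adjusted p = 0.0369). Fbn1 encodes fibrillin 1, the microfibril protein that anchors those complexes, and stood at 17.3 to 52.1 and 85.2 to 152 CPM (log2 1.88, adjusted p = 0.0497), with its call lost without cHet11 and cKO9 (adjusted p = 0.0671). Emilin1, whose product restrains processing of the TGF-beta precursor, stood at 34.2 to 151 and 237 to 669 CPM without passing (log2 2.36, adjusted p = 0.0581). It passed without cHet11 and cKO9 (adjusted p = 0.0113), where 2.84% of all genes were called higher. Emilin1 passed in 1 of the 8 omissions of a single library (adjusted p from 0.0278 to 0.178). Ltbp2 stood at 8.10 to 13.3 and 19.1 to 23.3 CPM (adjusted p = 0.0640). Nrros, which encodes the latency partner of TGF-beta 1 on myeloid cells, went the other way, at 9.22 to 38.5 CPM in cHet and 6.27 to 9.28 CPM in cKO (log2 −1.37, adjusted p = 0.188, and −0.90 without cHet12, its highest library). Dcn, the gene for the TGF-beta-binding proteoglycan decorin, stood at 148 to 669 and 117 to 205 CPM (log2 −1.04, adjusted p = 0.257, and −0.49 without cHet8, its highest library). These 2 genes, the lower ones at an unadjusted p under 0.05, were chosen after their values were seen.

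Of 7 co-receptors and other type I and II receptors, 6 were tested and none was called by edgeR (2 had an unadjusted p under 0.05, both higher, beside 10.8% of all genes, and the median log2 was 0.27). Eng, the gene for the endothelial co-receptor endoglin, stood at 4.97 to 17.4 CPM in cHet and 23.4 to 30.7 CPM in cKO without overlap (log2 1.497, adjusted p = 0.0977). Acvrl1, the gene for the receptor kinase ALK1, stood at 2.73 to 19.8 and 12.7 to 42.5 CPM (log2 1.55, adjusted p = 0.249). Both are known from endothelium. The sum of 8 endothelial markers was 20.0 to 40.0 CPM in cHet and 12.8 to 36.5 CPM in cKO, with overlapping ranges. Of these markers 6 had a log2 fold change below 0 and 2 above (median −0.45). At an unadjusted p under 0.05, 1 was lower in cKO, beside 6.33% of all tested genes. Cdh5, the gene for the endothelial cadherin, averaged 0.361 and 0.499 CPM. The part of endothelial cells in these levels was not tested. The activin receptor genes Acvr2a and Acvr2b had log2 values of 0.36 and −0.26, the latter −0.15 without cKO15 and −0.42 without cKO9.

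Of 9 activin and GDF ligand and binder genes, 7 were tested and none was called by edgeR (1 had an unadjusted p under 0.05, higher, beside 10.8% of all genes, and the median log2 was 0.42). That gene was Fst, which encodes the activin-binding protein follistatin, at 6.68 to 22.8 CPM in cHet and 13.1 to 43.3 CPM in cKO (log2 1.46, adjusted p = 0.190). The inhibin subunit genes Inha and Inhbb and the follistatin-like gene Fstl3 stood at means between 1.98 and 8.72 CPM in cHet and between 3.71 and 12.4 CPM in cKO.

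Of 13 Smads and their regulators, 12 were tested and none was called by edgeR (6 had an unadjusted p under 0.05, all higher, beside 10.8% of all genes, and the median log2 was 0.46). Smad7, which encodes the inhibitory Smad induced as feedback, stood at 5.99 to 23.6 CPM in cHet and 26.8 to 43.7 CPM in cKO (log2 1.38, adjusted p = 0.139), with its highest cHet value in cHet12. The signal transducer gene Smad3 stood at 8.31 to 20.3 and 14.9 to 42.4 CPM (log2 1.09), and Smad2 at 44.9 to 58.3 and 59.5 to 81.4 CPM (log2 0.44). The ubiquitin ligase gene Smurf1 had a log2 value of 0.52 (adjusted p = 0.115), and its groups did not overlap, as was also the case for Smad2 and Smad7.

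Of 20 other response genes, all tested, 2 rose and 0 fell (median log2 0.91), and 7 were higher at an unadjusted p under 0.05, beside 10.8% of all genes. Timp3, the gene for an inhibitor of metalloproteases, stood at 75.0 to 179 CPM in cHet and 430 to 1061 CPM in cKO (log2 2.58, SE 0.34, edgeR adjusted p = 0.0327). Tsc22d1, a transcription regulator gene known as TGF-beta-stimulated clone 22, stood at 877 to 1136 and 1588 to 3417 CPM (log2 1.33, adjusted p = 0.0405). The proteoglycan gene Bgn stood at 74.2 to 213 and 323 to 1135 CPM (adjusted p = 0.0633) and the metalloprotease gene Adam12 at 5.63 to 9.76 and 13.5 to 23.6 CPM (adjusted p = 0.0834). Ccn2, the gene for connective tissue growth factor, was chosen after its values were seen and did not pass, at 55.8 to 207 and 80.5 to 276 CPM (log2 0.88, adjusted p = 0.423, and 1.49 without cHet14). Beside all these lists, edgeR called 1 of 15 mesenchyme markers and 3 of 12 papilla markers higher, where it called 1.08% of all tested genes higher. Cxcl12 was among them (log2 2.47, edgeR adjusted p = 0.0497). The median log2 fold change was 1.49 for the mesenchyme and 1.84 for the papilla list. Of 12 macrophage markers all had log2 values below 0 (median −1.58), and none was called by edgeR. At an unadjusted p under 0.05, 10 of the 12 were lower, beside 6.33% of all tested genes.

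**Figure D5:**
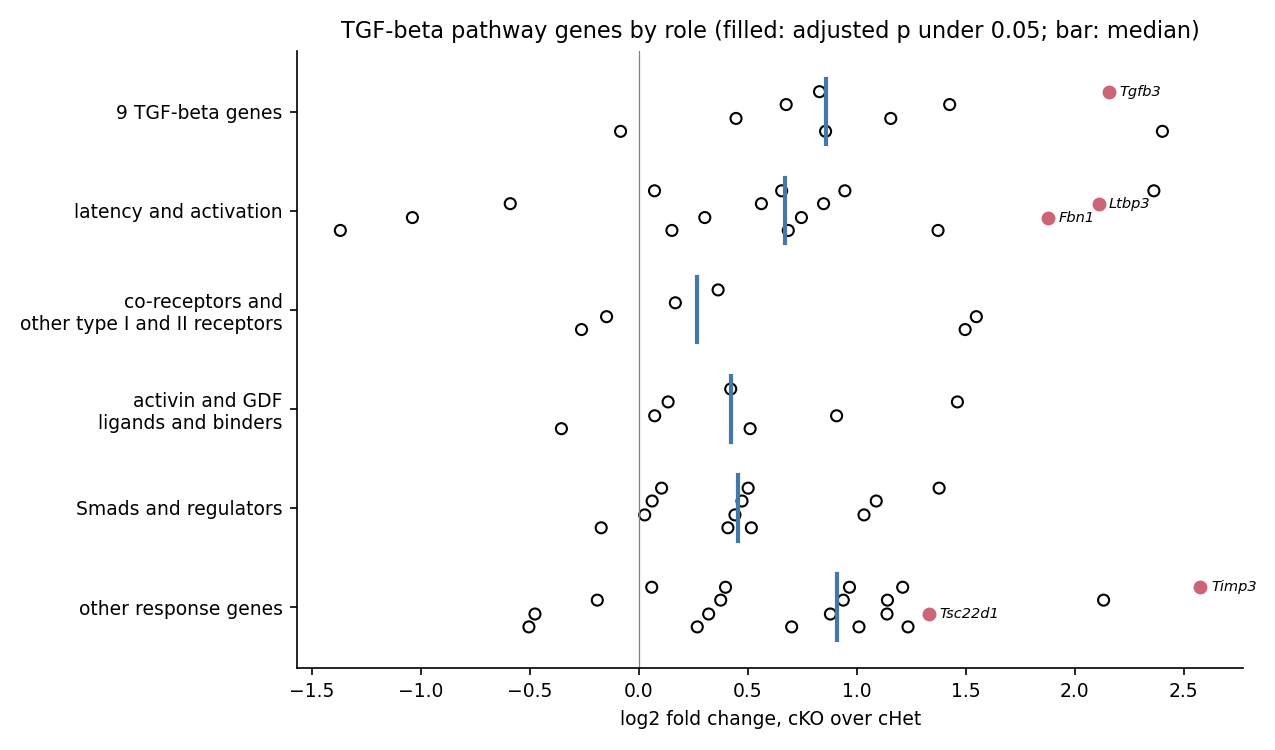
Log2 fold change of cKO over cHet (horizontal axis) for each tested gene of the pathway, by role, with called genes filled and named and the median of each list as a bar. The medians lie between 0.27 for co-receptors and 0.91 for the other response genes. With mesenchyme scaling, where the median of all genes is −1.54, Ltbp3, Fbn1 and Timp3 stay above 0 and Tsc22d1 is at −0.26.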

How the data were processed

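Sorted cells of 4 cHet and 4 cKO libraries were profiled by low-input RNA sequencing, with cDNA from a low-input SMART-Seq kit that does not mark strand, per the labels. The authors' deposited table holds raw whole-number counts per Ensembl gene. Trim Galore, STAR and the builds GRCm39 and mm39 appear in the submitters' processing notes, without versions, counting tool or annotation. Columns carry the group and a number that matches no sample title, so each was assigned to its group alone. Of 56748 identifiers, 52073 matched a symbol, and the identifier with the highest count stood for a symbol. All identifiers were fitted in R 4.3.3 with edgeR 4.0.16 (TMM factors, default expression filter, quasi-likelihood F test, genotype as the sole term). Each SE was approximated from the fold change and its F statistic (log2 value over root F). DESeq2 1.42.0, limma 3.58.1 (voom), other scalings, filters, thresholds and covariates, summed identifiers and the omission of each library were alternatives, and the fit without cHet11 and cKO9 was added after seeing the data. A marker score averages log2 CPM over its list (prior count 2). The scripts were tested on simulated counts. The genes, lists and tests were chosen with earlier results of these data known. Always eligible to be named were the 9 genes, Ctnnb1 and Cxcl12, then the 4 genes with the smallest p of each list and the 3 genes most correlated with each of the 9 at a mean of at least 5 CPM. Predicted gene names were left out of the correlated genes. Nrros, Dcn and Ccn2 fall outside that rule. The 9 marker lists covered general mesenchyme, dental papilla, dental follicle, olfactory neurons, macrophages, neutrophils, endothelium, platelets and dental epithelium. Some marker lists had no count of called genes above. Of these, edgeR called 0 of 8 genes for dental follicle (median log2 1.00) and 0 of 12 for olfactory neurons (−0.46). It called 0 of 6 tested for neutrophils (−4.67) and 0 of 2 tested for platelets (−0.54). For endothelium it called 0 of 8 (−0.45), and for dental epithelium 0 of 8 (0.10). In this order, 5, 6, 5, 0, 1 and 1 genes had an unadjusted p under 0.05. Those of dental follicle were higher and the others lower, beside 10.8% of all tested genes higher and 6.33% lower.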

Additional observations from a re-analysis of the deposited data

Results flagged for a closer look

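Within groups of 4 libraries, a single library stood apart from the other 3 by more than the 95% limit of Dixon's gap test in 6 cases, over 34 named genes in 68 groups, and chance alone flags about 1 group in 20. For Tgfbr1, cHet11 stood at 346 CPM with the next cHet library at 264. For Skil, cHet11 stood at 67.0 CPM, below the next at 74.1, and for Bgn cHet11 stood at 74.2 CPM, below the next at 192. For Eng, cKO7 stood at 23.4 CPM with the next cKO library at 30.2. For Fst, cHet8 stood at 22.8 CPM with the next at 9.33, and for Adam12, cKO15 stood at 23.6 CPM with the next at 14.2.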

How the results depend on the processing

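The 244 genes called (232 higher, 12 lower), of which 1 was among the 9 TGF-beta genes, 4 among the other pathway genes and 4 among the markers, became 2557, 6, 18 and 34 with DESeq2, 1552, 5, 18 and 24 with voom, 766, 4, 9 and 15 at a threshold of 0.10, and 641, 4, 6 and 18 without cHet11 and cKO9, the fit chosen after seeing the data. They were 9, 0, 0 and 1 with the mesenchyme score as covariate and 0, 0, 0 and 0 with the olfactory score (1305 genes at an unadjusted p under 0.05). Mesenchyme scaling gave 9821 (71 higher, 9750 lower), 1, 18 and 44, and DESeq2 size factors in edgeR gave 1 marker. Leaving out 1 library in turn gave 0 to 960, 0 to 4, 0 to 7 and 0 to 15. The median log2 fold change of all genes was −0.12 with library size alone and −1.54 with mesenchyme scaling. In that scaling log2 values turned negative for Tgfb1 (−0.45), Tgfb2 (−0.29), Tgfbr2 (−0.0129), Tgfbr3 (−0.90), Skil (−0.74), Pmepa1 (−0.90), Ltbp2 (−0.51), Acvr2a (−1.23), Inha (−0.99), Inhbb (−0.65), Fstl3 (−1.16), Smad2 (−1.09), Smad3 (−0.34), Smurf1 (−0.97), Tsc22d1 (−0.26), Adam12 (−0.35), Ccn2 (−0.92) and Ctnnb1 (−1.46). With the mesenchyme score, signs turned for Tgfb1 (−0.22), Tgfbr1 (0.48), Acvrl1 (−0.28), Acvr2b (0.17) and Ctnnb1 (−0.12), and with the olfactory score for Tgfbr1 (0.16), Acvr2b (0.0231) and Ctnnb1 (−0.0880). Leaving out 1 library in turn moved Tgfbr1 between −0.458 without cKO9 and 0.0753 without cKO7, with 0.0246 without cHet11. The cause of these changes was not tested. No paired analysis was possible because the numbers in the column names match no sample title and the groups share 1 number, 14. With 4 libraries a group and a biological coefficient of variation of 0.553 over all genes, a p above the threshold for Tgfbr1 or Tgfbr3 does not show equal levels.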
